A study of Danio rerio with 12 samples.

Results

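Heat shock and unfolded protein genes were followed across 12 libraries of zebrafish larvae. The set was given as 59 gene names and was matched to the gene symbols of the count tables. Of these names 50 matched exactly, ignoring case, and 7 matched once a final a or b was dropped. The names hsp70.2 and hsp90aa1.2 did not match, so no value is given under either name. The match gave 60 genes of the 32057 in the tables, because 6 symbols stand for a pair of genes each. The 60 genes comprise 24 cytosolic chaperones and cochaperones, 29 endoplasmic reticulum (ER) stress genes, and 7 others, namely 2 heat shock factors, 3 mitochondrial chaperones and 2 collagen chaperones. All 60 passed the filter on low counts, as did 23075 genes in all.

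Chaperones bind proteins that are not yet folded or have lost their fold. In the cytosol, damaged protein draws chaperones away from the transcription factor HSF1, which then switches on the inducible HSP70, HSP40 and small heat shock protein genes, while related constitutive genes such as hspa8 and hsp90ab1 stay on in growing cells. In the ER, unfolded protein draws the chaperone BiP (hspa5) from the sensors IRE1 (ern1), PERK (eif2ak3) and ATF6. IRE1 splices the messenger of xbp1, PERK slows translation and favours ATF4 and its target CHOP (ddit3), and cleaved ATF6 joins XBP1 in raising ER chaperones and the machinery that clears misfolded protein.

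The libraries were made from messenger RNA of whole AB strain larvae. Exposed larvae received 0.4 mGy/h from tritiated water, which carries tritium, a radioactive form of hydrogen, and control larvae were not exposed. Sampling was at 7 and 10 days post fertilization (dpf), with 3 biological replicates per age and treatment. The incubator of the exposed larvae stood in a glove box and that of the controls outside it, so that tritium and incubator cannot be told apart. In whole larvae, fewer cells of a type and less RNA per cell cannot be told apart either. Values are read counts scaled to 1e+06 reads on genes (CPM), given in the order of the replicates, and log2 fold changes are given ± SE. Levels are not scaled by gene length, so they are compared between libraries and not between genes. "Fell" and "rose" are used where edgeR's quasi-likelihood test gave an adjusted p under 0.05 over all genes tested.

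Libraries held between 19.4 and 67.3 M reads on genes (M, 1e+06), with a median of 44.4 M. Between 14.4 and 14.8% of the reads mapped to several places and were assigned to no gene, so that the near-identical hsp70 copies and the pairs sharing a symbol carry some uncertainty. Control replicate 1 at 7 dpf stood apart in the heat shock genes. It was the highest of the 12 libraries in 11 of the 24 cytosolic genes, against 9.54% of all genes. It was also the highest in 14 of the 29 ER stress genes. Exposed replicate 1 at 10 dpf stood apart in the ER genes, in pancreas markers and in liver markers. Some of the calls and medians that changed without either of these libraries are given with and without it.

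At 10 dpf most ER stress genes were lower in exposed larvae, and no inducible HSP70 gene passed the test. Of the 60 genes 10 fell and 0 rose (16.7% called), where 11.8% of all genes tested were called, 7.02% lower and 4.77% higher. The 10 were 8 of the 29 ER stress genes (27.6%), 1 of the 24 cytosolic genes and 1 of the 7 others. In 20 of the 29 ER stress genes all 3 exposed libraries lay below all 3 controls, against 8 of the 24 cytosolic genes and 18.4% of all genes. The median log2 fold change was -0.47 over the ER stress genes, -0.07 over the cytosolic genes and -0.004 over all genes.

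Among the ER chaperones, MANF (ENSDARG00000063177), a small ER-resident and secreted protein that binds BiP, measured 4.86, 4.13 and 4.21 CPM in controls at 10 dpf and 1.14, 2.05 and 2.01 CPM in exposed larvae. CRELD2 (ENSDARG00000029071), a protein of the ER induced by ER stress, measured 2.08, 2.83 and 2.39 CPM in controls and 0.697, 1.203 and 1.06 CPM in exposed larvae. Both groups were separate for each gene, with exposed replicate 1 the lowest library. MANF fell, with a log2 fold change of -1.32 ± 0.33 (adjusted p = 0.0246) and CRELD2 with one of -1.27 ± 0.33 (adjusted p = 0.0265), the largest falls among the 60 genes. The lectin chaperone calnexin, CANX (ENSDARG00000037488), measured 266, 247 and 267 CPM in controls and 170, 205 and 190 CPM in exposed larvae, and fell, at -0.47 ± 0.14 (adjusted p = 0.0415).

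The chaperones best known as targets of the response had the same order of groups without passing the test. HSPA5 (ENSDARG00000103846), the ER HSP70 known as BiP, measured 165, 169 and 167 CPM in controls and 94.6, 124 and 133 CPM in exposed larvae. Its controls were tightly grouped and its exposed libraries all lay below them, with a log2 fold change of -0.51 ± 0.27 (adjusted p = 0.250). This SE, like the others here, comes from a fit that shares its estimate of spread with the 7 dpf groups. The SD of HSPA5 was 95.9 CPM in controls at 7 dpf and 2.05 CPM in controls at 10 dpf. HSP90B1 (ENSDARG00000003570), the ER member of the HSP90 family, measured 128, 120 and 110.15 CPM in controls against 51.9, 89.2 and 91.4 CPM (-0.62 ± 0.30, adjusted p = 0.203). The groups did not overlap in 12 of the 14 ER chaperones; the exceptions were DNAJB9 (ENSDARG00000052072) and CALR, the lectin calreticulin. Values of the others that did not pass ranged from -0.86 for the BiP cochaperone DNAJB9 (ENSDARG00000016886, adjusted p = 0.0685) over -0.78 for the ER nucleotide exchange factor HYOU1 and -0.77 for the disulfide isomerase PDIA4 to 0.04 for the other DNAJB9 gene.

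The genes for ER-associated degradation, which returns misfolded protein to the cytosol, included the fall with the smallest p. HERPUD1 (ENSDARG00000024314), a membrane scaffold of the degradation complex, measured 50.4, 54.2 and 48.4 CPM in controls and 29.9, 35.9 and 34.9 CPM in exposed larvae. EDEM1 (ENSDARG00000025094), which trims mannose from misfolded glycoproteins, measured 69.8, 54.5 and 58.2 CPM against 31.8, 37.0 and 38.5 CPM. HERPUD1 fell, at -0.60 ± 0.11 (adjusted p = 0.00439), as did EDEM1, at -0.77 ± 0.18 (adjusted p = 0.0217). SYVN1, the ubiquitin ligase of the complex, and its partner SEL1L were also lower in every exposed library, at -0.29 (adjusted p = 0.0542) and -0.25 (adjusted p = 0.0552), without passing the test. All 4 of these genes thus had separate groups.

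**Figure D1:**
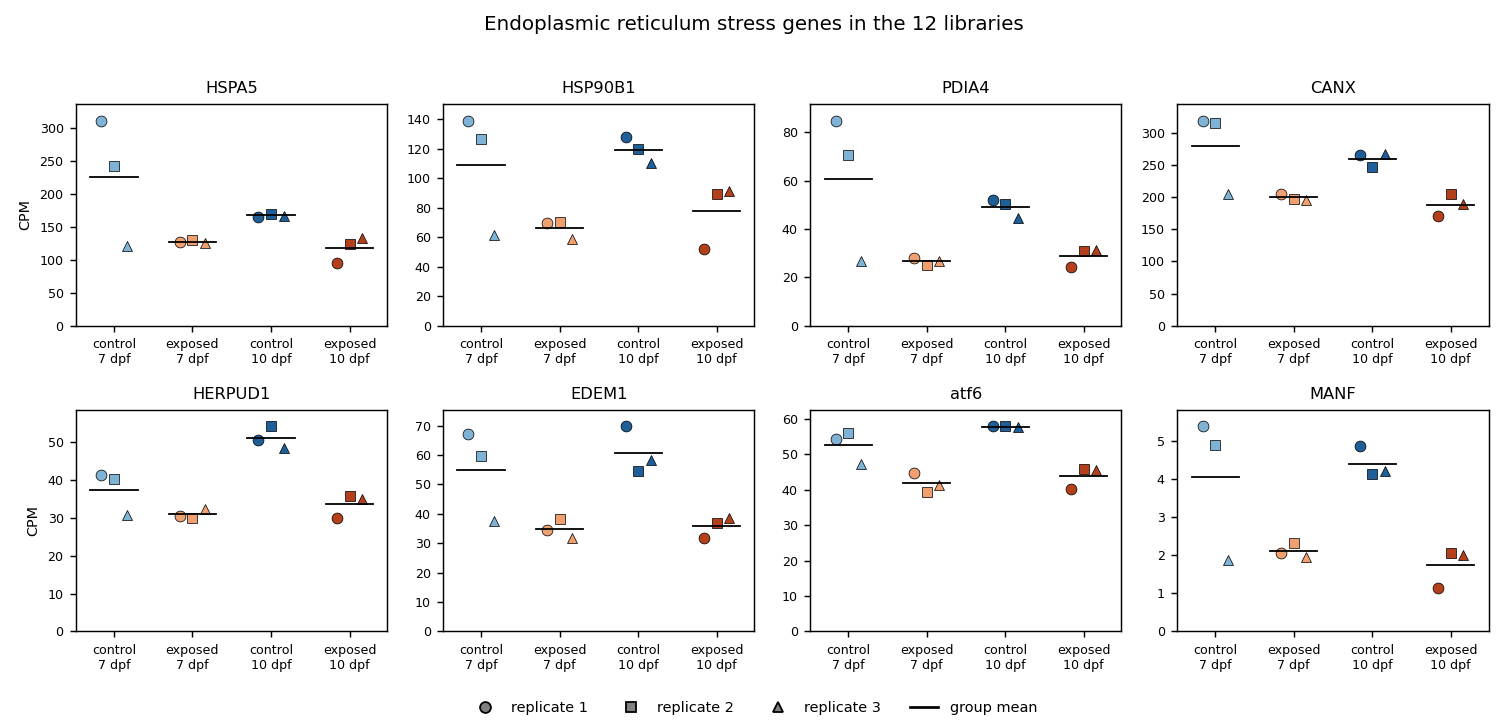
CPM of 8 ER stress genes (vertical axes, each from 0) in the 12 libraries, by treatment and age (horizontal axes); symbols mark replicates and bars the group means. At 10 dpf the exposed libraries lie below the controls in all 8. At 7 dpf control replicate 3 lies at or near the exposed libraries in HSPA5, HSP90B1, PDIA4, CANX, HERPUD1, EDEM1 and MANF, and above them in atf6.

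Of the 3 sensors, 2 fell. The transcript of atf6 (ENSDARG00000012656), whose protein is cleaved to a transcription factor, measured 58.0, 57.9 and 57.6 CPM in controls and 40.3, 45.8 and 45.5 CPM in exposed larvae. That of ern1 (ENSDARG00000013997), the kinase and nuclease IRE1, measured 26.1, 37.8 and 38.9 CPM in controls and 24.7, 24.9 and 24.1 CPM in exposed larvae. The fall was -0.40 ± 0.08 for atf6 (adjusted p = 0.00880) and -0.48 ± 0.14 for ern1 (adjusted p = 0.0376), and in ern1 control replicate 1 lay close to the exposed libraries. EIF2AK3, the kinase PERK, was at -0.15 ± 0.10 (adjusted p = 0.361).

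Transcript levels of the transcription factors and of most genes downstream of PERK did not pass. XBP1 (ENSDARG00000035622) measured 223, 207 and 199.9 CPM in controls and 139.6, 189 and 212 CPM in exposed larvae, with overlap (-0.22 ± 0.14, adjusted p = 0.309). These counts sum all reads of a gene and do not separate the spliced from the unspliced form. For atf4a (ENSDARG00000111939) the log2 fold change was -0.06 ± 0.09 (adjusted p = 0.698), and for its paralog atf4b 0.26 ± 0.10 (adjusted p = 0.108). DDIT3 (ENSDARG00000059836), which encodes CHOP, measured 99.2, 96.96 and 100.2 CPM in controls and 86.5, 91.3 and 83.9 CPM in exposed larvae, separate groups with a log2 fold change of -0.18 ± 0.07 (adjusted p = 0.101). Among the targets of ATF4 and CHOP, the kinase-like regulator TRIB3 was at 0.10, the glutathione-degrading CHAC1 at 0.09 and ppp1r15a, which restores translation, at 0.07, with adjusted p of 0.729, 0.747 and 0.677.

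ASNS (ENSDARG00000016375), the ATF4 target that makes asparagine, did fall. It measured 26.1, 24.5 and 23.5 CPM in controls and 16.1, 16.05 and 15.3 CPM in exposed larvae with no overlap, and fell, at -0.65 ± 0.13 (adjusted p = 0.00760).

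**Figure D2:**
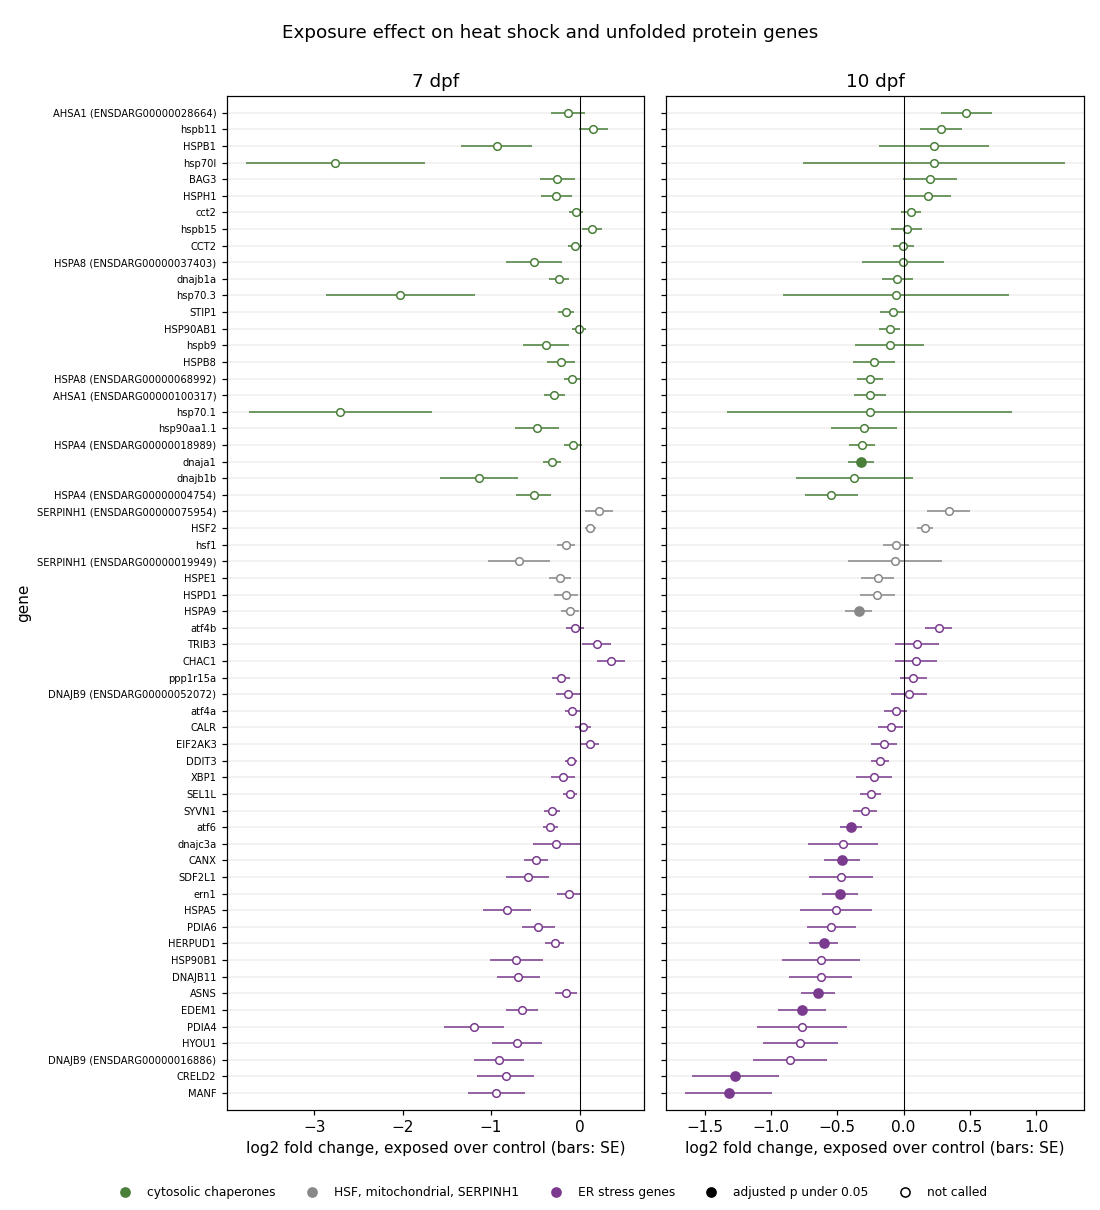
Log2 fold change of exposed over control larvae (horizontal axes; the scales of the panels differ; bars, SE) for the 60 genes (vertical axis, grouped by class and ordered by the value at 10 dpf), at 7 dpf (left) and 10 dpf (right). Filled points passed an adjusted p of 0.05: 0 at 7 dpf and 10 at 10 dpf, 8 of these ER stress genes.

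In the cytosolic set at 10 dpf the values of the inducible HSP70 genes overlapped those of the controls. The inducible HSP70 gene hsp70l (ENSDARG00000055723) measured 4.54, 6.19 and 4.93 CPM in controls and 4.79, 5.98 and 7.55 CPM in exposed larvae (0.23 ± 0.99, adjusted p = 0.910). Its relative hsp70.3 (ENSDARG00000021924) was at -0.06 ± 0.85 (adjusted p = 0.976), and hsp70.1 at -0.26 ± 1.07 (adjusted p = 0.905). These SEs come from a fit that shares its estimate of spread with the 7 dpf groups, in which 1 control is far above the others. HSPB1 (ENSDARG00000041065), the small heat shock protein HSP27, was at 0.23 ± 0.41, dnajb1b (ENSDARG00000041394), the HSP40 partner of HSP70, at -0.37 ± 0.44, and BAG3 (ENSDARG00000039486), the nucleotide exchange factor that couples HSP70 to autophagy, at 0.20 ± 0.20, with adjusted p of 0.760, 0.625 and 0.554. Of these, dnajb1b was lower in every exposed library, at 11.9, 11.4 and 10.2 CPM against 15.1, 14.6 and 13.6 CPM in controls.

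Of the other cytosolic genes 1, dnaja1, passed the test. HSPA8 (ENSDARG00000068992), one of a pair of genes with the symbol of the constitutive HSP70, measured 2823, 2768 and 2729.9 CPM in controls and 2039, 2404 and 2550.0 CPM in exposed larvae, separate groups (-0.25 ± 0.10, adjusted p = 0.112). The other gene with that symbol, ENSDARG00000037403, was at -0.01 ± 0.31. HSP90AB1 (ENSDARG00000029150), the constitutive HSP90, was at -0.10 ± 0.08 (adjusted p = 0.401), and hsp90aa1.1 (ENSDARG00000010478), known in zebrafish for folding myosin in muscle, at -0.30 ± 0.25 (adjusted p = 0.466). Both had separate groups, lower in exposed larvae, by a small margin. The highest exposed library was at 6247 CPM for HSP90AB1 and 124 CPM for hsp90aa1.1, and the lowest control at 6283 and 125 CPM. The HSP40 gene dnaja1 (ENSDARG00000030972) fell, from 35.5, 32.6 and 33.1 CPM to 27.7, 28.5 and 24.7 CPM (-0.32 ± 0.10, adjusted p = 0.0491), a p just under the threshold. The HSP70 relatives with the symbol HSPA4 had separate groups, lower in exposed larvae, at -0.54 (ENSDARG00000004754, adjusted p = 0.104) and -0.31 (ENSDARG00000018989, adjusted p = 0.0544). The genes of the HSP90 cochaperone AHSA1 both had separate groups, with opposite signs, at 0.47 (ENSDARG00000028664, adjusted p = 0.126) and -0.25 (ENSDARG00000100317, adjusted p = 0.182).

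Outside both classes, hsf1 (ENSDARG00000008818), the regulator of the heat shock genes, was at -0.05 ± 0.10 (adjusted p = 0.756). HSF2 was higher in every exposed library, at 0.16 ± 0.06 (adjusted p = 0.0945). The mitochondrial HSP70, HSPA9 (ENSDARG00000003035), measured 124, 128 and 118 CPM in controls and 85.7, 114 and 92.5 CPM in exposed larvae, and fell, at -0.34 ± 0.10 (adjusted p = 0.0464). The mitochondrial chaperonin HSPD1 (ENSDARG00000056160) and its lid HSPE1 were both at -0.20, with adjusted p of 0.361 and 0.318. The collagen chaperone genes, which share the symbol SERPINH1, were at -0.06 ± 0.35 (ENSDARG00000019949) and 0.34 ± 0.16 (ENSDARG00000075954), with adjusted p of 0.931 and 0.186.

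Some calls at 10 dpf were lost whichever library of that age was left out, each such fit having fewer replicates in the group concerned. How many of all genes were called in these fits is not given here, so the losses are not read as particular to the members. Of the 10 calls, 4 were kept without control replicate 1, 2 or 3 at 10 dpf, and 3, 6 and 5 without exposed replicate 1, 2 or 3, where the last fit also called 3 other members. HERPUD1, atf6 and ASNS were called in all 6 of these fits, with adjusted p of at most 0.0207, 0.0352 and 0.0345. Calls of dnaja1 and CANX were lost in all 6, with adjusted p up to 0.181 and 0.128. Those of HSPA9, CRELD2 and ern1 were kept in 1 fit each, that of MANF in 2 and that of EDEM1 in 3, with adjusted p up to 0.164, 0.0890, 0.131, 0.0885 and 0.0905. Of 8 other settings, which included other scalings, filters and a replicate block, dnaja1 kept its call in 1 and HSPA9 in 3, with adjusted p up to 0.113 and 0.0911, whereas CANX lost it under the replicate block (0.0797) and ern1 under the block and with the compared groups alone (up to 0.0763).

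Exposed replicate 1 at 10 dpf was the lowest of the 12 libraries in 15 of the 29 ER stress genes, among them 12 of the 14 ER chaperones, against 2 of the 24 cytosolic genes and 17.8% of all genes. Among the 6 libraries at 10 dpf it was the lowest in 20 of the 29 ER stress genes. There it was also the lowest in 13 of the 24 cytosolic genes (54.2%), against 30.7% of all genes. Without it, the median of the ER stress genes was -0.34, and 21 of the 29 had separate groups with the exposed larvae lower, against 21.8% of all genes, a count made after the data were seen. HERPUD1, atf6 and ASNS were then called, at -0.52, -0.34 and -0.65. The calls of the other 7 were lost. MANF was at -1.11 (adjusted p = 0.0671), CRELD2 at -1.09 (adjusted p = 0.0766), EDEM1 at -0.68 (adjusted p = 0.0719) and ern1 at -0.48 (adjusted p = 0.0944). CANX was at -0.39, dnaja1 at -0.33 and HSPA9 at -0.25, with adjusted p of 0.124, 0.0818 and 0.164.

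The same library was low in marker genes of secretory organs, whose cells are rich in ER. The 13 tested markers of exocrine pancreas summed to 2394 CPM in it, against 18211 and 21894 CPM in the other exposed libraries at 10 dpf, 16367 to 21507 CPM in the controls of that age, 12214 to 14928 CPM in controls at 7 dpf and 13608 to 18588 CPM in exposed larvae at 7 dpf. The 16 liver markers summed to 892 CPM in it, against 4352 and 5621 CPM in the other exposed libraries at 10 dpf, 5171 to 5343 CPM in controls at 10 dpf, 6247 to 7761 CPM in controls at 7 dpf and 6613 to 7840 CPM in exposed larvae at 7 dpf. Of the pancreas and liver markers edgeR called 0 at 10 dpf, and 1 of 13 and 0 of 16 had an unadjusted p under 0.05, with medians of -0.48 and -0.55 and every marker below 0. The part of these organs in the ER result was not tested.

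**Figure D3:**
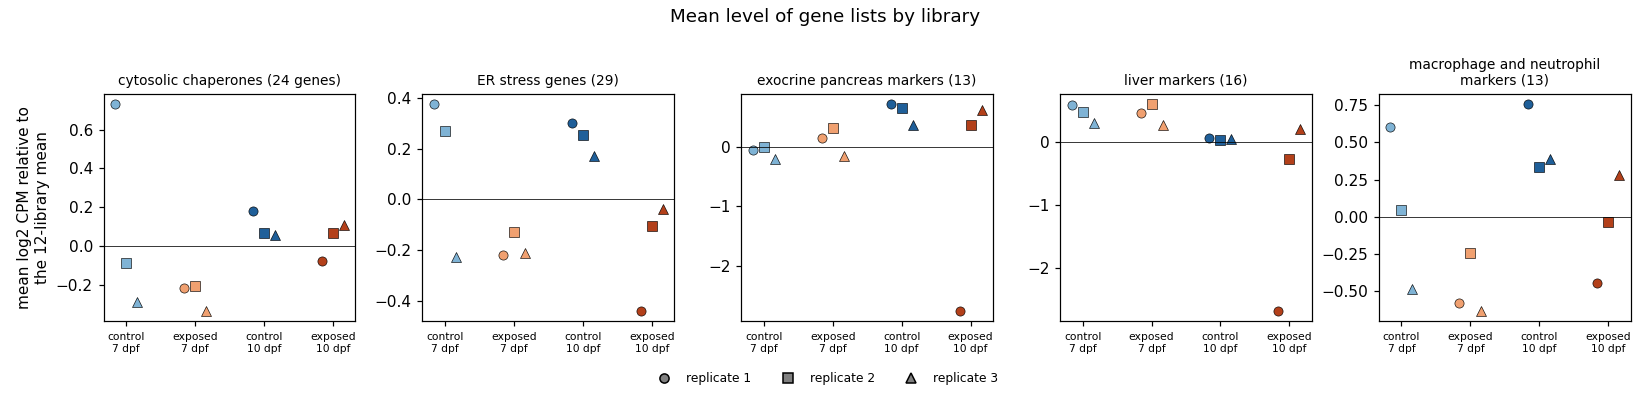
Mean log2 CPM of each gene list relative to the mean of the 12 libraries (vertical axes, which differ in scale), by library, treatment and age (horizontal axes), for cytosolic chaperones, ER stress genes and markers of exocrine pancreas, liver, and macrophages and neutrophils; symbols mark replicates. Control replicate 1 at 7 dpf is highest for the cytosolic chaperones (0.73) and for the ER stress genes (0.37). Exposed replicate 1 at 10 dpf is lowest for ER stress genes (-0.44), pancreas (-2.77) and liver (-2.67).

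Most markers of macrophages and neutrophils were also below 0 at 10 dpf, 11 of the 13 tested, with a median of -0.40. The 10 matched names of this list gave 17 genes, several of which share the symbol MFAP4, so these are not all separate markers. The names mpx and mpeg1.1 did not match. Of the 13 markers 3 fell and 0 rose (23.1% called, against 11.8% of all genes). They were the lysosomal membrane protein cd68 (-1.22), MFAP4 (ENSDARG00000038683, -2.60) and the actin regulator CORO1A (-0.65). The summed level of the list is given next. The 13 markers summed to 230 to 309 CPM in controls and 141 to 211 CPM in exposed larvae at 10 dpf, and to 164 to 416 CPM and 140 to 177 CPM at 7 dpf. The neutrophil marker lyz was near 0 in every group, at most 0.0576 CPM on average. Marker lists of lens, fast muscle, and cartilage and bone went the other way at 10 dpf, with medians of 0.34, 0.23 and 0.52. The part of any of these cells in the ER result was not tested.

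At 7 dpf the test called 0 of the 60 genes, where it called 0.516% of all genes. Without adjustment, 24 of the 60 had a p under 0.05 (40% against 11.9% of all genes), 16 of them ER stress genes and 8 cytosolic genes. DESeq2 called 6, all ER stress genes lower in exposed larvae: HSPA5, PDIA4, CANX, EDEM1, atf6 and DNAJB9 (ENSDARG00000016886). The share of all genes called by DESeq2 is not given here, so this count is not read as particular to the members. The median log2 fold change was -0.28 over the ER stress genes and -0.26 over the cytosolic genes, against -0.01 over all genes. Of the ER stress genes 25 of 29 and of the cytosolic genes 22 of 24 were below 0. In 4 of the 29 ER stress genes and 1 of the 24 cytosolic genes all exposed libraries lay below all controls, against 8.6% of all genes, and in 1 and 2 genes all lay above them, against 8.15%.

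Control replicate 1 at 7 dpf was far above the other controls in some cytosolic genes. The gene hsp70l measured 67.6, 4.46 and 4.05 CPM in controls at 7 dpf and 4.69, 3.44 and 3.12 CPM in exposed larvae, so that control replicate 1 was 15.9-fold above the mean of the other controls. The other inducible HSP70 genes had the same form. Control values were 32.0, 4.40 and 2.30 CPM for hsp70.3 and 10.9, 0.711 and 0.657 CPM for hsp70.1, against 4.14, 2.87 and 2.56 CPM and 0.885, 0.547 and 0.460 CPM in exposed larvae. All exposed values of the 3 genes lay within or below the range of control replicates 2 and 3, apart from that of hsp70.1 in exposed replicate 1 and that of hsp70l in the same library.

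Some HSF1 targets of other families were high in the same library, and other members of these families were less so or not. In that library BAG3 was 1.42-fold, dnajb1a 1.24-fold and hspb15 0.865-fold the mean of the other controls at 7 dpf. HSPB1 measured 43.5, 15.7 and 12.8 CPM in controls at 7 dpf and 13.6, 12.3 and 12.1 CPM in exposed larvae, and dnajb1b 43.5, 14.8 and 10.7 CPM against 11.3, 10.9 and 9.30 CPM. For hsp90aa1.1 the values were 158, 78.0 and 77.0 CPM in controls and 66.7, 80.2 and 77.8 CPM in exposed larvae. Control replicate 1 also stood high in HSPA8 (ENSDARG00000037403), at 13.6 CPM against 5.37 and 5.39 CPM, and in SERPINH1 (ENSDARG00000019949), at 27.0 CPM against 10.9 and 12.2 CPM. HSP90AA1 (ENSDARG00000024746), which none of the 59 names matched, measured 104.5 CPM in that library and 39.0 and 36.0 CPM in the other controls. It may be the gene meant by the unmatched name hsp90aa1.2, which was not checked.

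The abundant constitutive genes lay near the other controls. In control replicate 1, HSPA8 (ENSDARG00000068992) was 1.11-fold and HSP90AB1 0.994-fold the mean of the other controls, whereas the HSPA8 gene ENSDARG00000037403 was 2.54-fold. Of the cytosolic genes 7 of 24 were over 2-fold above the other controls in it, against 0 of 29 ER stress genes, 1 of the 7 others and 1.2% of all genes. The transcript of hsf1 itself measured 43.1, 38.4 and 37.7 CPM in controls and 34.7, 33.8 and 39.0 CPM in exposed larvae.

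**Figure D4:**
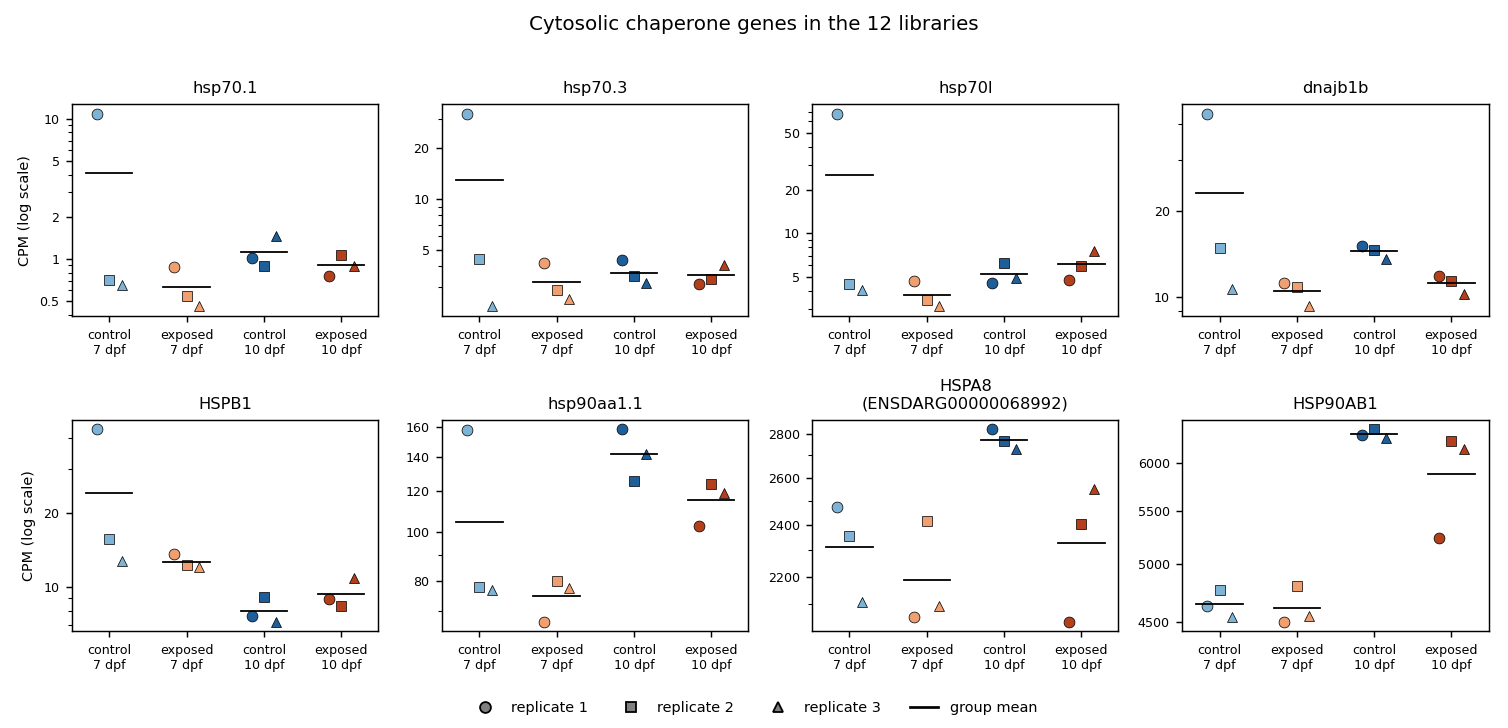
CPM of 8 cytosolic chaperone genes (vertical axes, log scales that differ between panels) in the 12 libraries, by treatment and age (horizontal axes); symbols mark replicates and bars the group means. Control replicate 1 at 7 dpf lies far above the other 11 libraries in hsp70.1, hsp70.3, hsp70l, dnajb1b and HSPB1, and not in HSPA8 (ENSDARG00000068992) or HSP90AB1.

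With all libraries the log2 fold changes at 7 dpf were -2.76 ± 1.01 for hsp70l (adjusted p = 0.321), -2.70 ± 1.03 for hsp70.1 (adjusted p = 0.346), -2.02 ± 0.84 for hsp70.3 (adjusted p = 0.388), -1.14 ± 0.44 for dnajb1b (adjusted p = 0.352), -0.94 ± 0.40 for HSPB1 (adjusted p = 0.399) and -0.48 ± 0.25 for hsp90aa1.1 (adjusted p = 0.507). Without control replicate 1 they were -0.14, -0.04, -0.02, -0.25, -0.15 and -0.03 in the same order, and the median of the cytosolic genes was -0.03. That library was singled out for its high values in these genes. Leaving it out therefore narrowed the difference, and these values are a description only. The constitutive HSPA8 was at -0.08 ± 0.10 and HSP90AB1 at -0.01 ± 0.08 with all libraries, BAG3 at -0.25 ± 0.20, hsf1 at -0.15 ± 0.10 and HSPD1 at -0.16 ± 0.13, with adjusted p of 0.845, 0.984, 0.712, 0.606 and 0.738. The other HSPA8 gene was at -0.51 ± 0.32 and the SERPINH1 genes at -0.68 ± 0.35 (ENSDARG00000019949) and 0.22 ± 0.16 (ENSDARG00000075954), with adjusted p of 0.590, 0.502 and 0.664.

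The ER chaperones at 7 dpf had another pattern, in which control replicates 1 and 2 were high and control replicate 3 lay with the exposed larvae. HSPA5 measured 311, 242 and 121 CPM in controls and 127, 130.02 and 125 CPM in exposed larvae. HSP90B1 measured 139, 126 and 61.8 CPM against 69.9, 70.5 and 59.0 CPM. PDIA4 measured 84.8, 70.8 and 26.7 CPM against 27.9, 25.3 and 26.7 CPM. In 17 of the 29 ER stress genes, 11 of the 14 ER chaperones among them, control replicates 1 and 2 lay above all exposed libraries and replicate 3 did not, as in 11 of the 24 cytosolic genes and 10.1% of all genes. Both were over 1.5-fold above replicate 3 in 13 ER stress genes, 12 of them chaperones, in 2 cytosolic genes and in 4.23% of all genes.

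Their log2 fold changes at 7 dpf were -0.82 ± 0.27 for HSPA5 (adjusted p = 0.258), -0.71 ± 0.30 for HSP90B1 (adjusted p = 0.385) and -1.19 ± 0.34 for PDIA4 (adjusted p = 0.192), and the median of the 14 ER chaperones was -0.70. Without control replicate 3 the test called 16 members lower, 15 of them ER stress genes. The cytosolic one was HSPA4 (ENSDARG00000004754). HSPA5 was then at -1.12 (adjusted p = 0.000385), PDIA4 at -1.55 (adjusted p = 2.43e-05) and CANX at -0.67 (adjusted p = 0.000879). Replicate 3 was the lowest control in 25 of the 29 ER stress genes, against 38.1% of all genes. Leaving it out therefore widened the difference, and these calls are a description only. Without control replicate 1 or 2 the test called 0 members. In all, 831 genes were called without replicate 3, against 12 and 18 without replicate 1 or 2. The list mean of the macrophage and neutrophil markers ran in the same order over these controls, at 0.60, 0.05 and -0.48 on the log2 scale, against -0.58, -0.24 and -0.63 in exposed larvae. That of the liver markers did too, at 0.58, 0.46 and 0.30, against 0.46, 0.59 and 0.26 in exposed larvae. So did those of the lists of other pathway genes given below. Means of the pancreas, fast muscle, lens, and cartilage and bone lists did not. The part of any of these cells in the ER values was not tested.

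Among the sensors, the factors, the degradation genes and the genes downstream of PERK, atf6 had the lowest p at 7 dpf, and it did not pass the test. The log2 fold change was -0.33 ± 0.08 for atf6 (adjusted p = 0.0957), -0.28 ± 0.11 for HERPUD1 (adjusted p = 0.317), -0.18 ± 0.14 for XBP1 (adjusted p = 0.673), -0.08 ± 0.09 for atf4a (adjusted p = 0.816), -0.09 ± 0.07 for DDIT3 (adjusted p = 0.656) and -0.15 ± 0.13 for ASNS (adjusted p = 0.727). The exposed libraries of atf6 (44.7, 39.4 and 41.5 CPM) lay below all controls (54.4, 56.2 and 47.3 CPM). CHAC1 had the highest log2 fold change of the 60 genes at 7 dpf, with 1023, 1082 and 1102 CPM in controls and 1300.1, 1531 and 1287 CPM in exposed larvae, separate groups at 0.36 ± 0.16 (adjusted p = 0.391).

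The test of the difference between the exposure effects at 10 and 7 dpf called 0 of the 60 genes, where 0.269% of all genes were called. Without adjustment 3 had a p under 0.05 (5% against 11.3% of all genes), and DESeq2 called 0. The difference was 2.99 ± 1.40 for hsp70l (adjusted p = 0.468), 1.97 ± 1.19 for hsp70.3 and 1.17 ± 0.57 for HSPB1. Without control replicate 1 at 7 dpf it was 0.38, -0.03 and 0.39 in the same order. It was 0.31 ± 0.38 for HSPA5, 0.09 ± 0.42 for HSP90B1 and -0.33 ± 0.15 for HERPUD1, with adjusted p of 0.799, 0.952 and 0.447. For ASNS it was -0.49 ± 0.18 (adjusted p = 0.336), and -0.72 (adjusted p = 0.0217) without control replicate 1 at 7 dpf. The ER falls called at 10 dpf are therefore not shown to be particular to that age.

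Between 7 and 10 dpf the cytosolic genes changed about as often as other genes, mostly upward, and few ER stress genes changed. In controls 9 of the 60 genes rose and 3 fell (20% called), where 29.3% of all genes were called, 14.3% higher and 15% lower. In exposed larvae 11 rose and 2 fell (21.7%), where 23.2% of all genes were called, 10.8% higher and 12.4% lower. Of the called genes 7 were shared, 58.3% of the 12 in controls and 53.8% of the 13 in exposed larvae, all in the same direction. Of the cytosolic genes 7 of 24 were called in controls, 5 higher and 2 lower, and 7 of 24 in exposed larvae, all higher. Of the ER stress genes 3 of 29 (10.3%) were called in either comparison, all higher in controls and 2 higher and 1 lower in exposed larvae. The libraries of both ages did not overlap in 20 of the 60 genes in controls, 16 of them higher at 10 dpf (46.1% of all genes, 22.5% higher and 23.6% lower), and in 24 in exposed larvae, 18 of them higher (39.6% of all genes, 19.4% higher and 20.2% lower).

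The rises were led by a pair of genes listed as cct2 (ENSDARG00000087206) and CCT2 (ENSDARG00000104674), the symbol of a subunit of the chaperonin that folds actin and tubulin. The former measured 36.1, 31.7 and 33.2 CPM in controls at 7 dpf and 51.5, 49.6 and 52.5 CPM at 10 dpf, with separate groups. It rose by 0.60 ± 0.08 in controls (adjusted p = 8.57e-05) and by 0.70 ± 0.08 in exposed larvae (adjusted p = 3.49e-05), and CCT2 by 0.57 ± 0.08 and 0.61 ± 0.08. HSP90AB1 went from 4629.5, 4773 and 4546 CPM to 6309, 6378 and 6283 CPM in controls and from 4504, 4802 and 4551 CPM to 5241, 6247 and 6149.9 CPM in exposed larvae, and rose by 0.44 ± 0.08 (adjusted p = 0.000936) and 0.35 ± 0.08 (adjusted p = 0.00582). The gene dnaja1 rose by 0.55 ± 0.10 in both, with adjusted p of 0.00101 and 0.00154, and dnajb1a rose by 0.50 ± 0.12 in exposed larvae (adjusted p = 0.00735).

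Among the ER stress genes, DDIT3 rose with age by 0.46 ± 0.07 in controls (adjusted p = 0.000280) and by 0.37 ± 0.07 in exposed larvae (adjusted p = 0.00160). EIF2AK3 measured 7.75, 9.70 and 9.58 CPM in controls at 7 dpf and 12.7, 13.3 and 11.6 CPM at 10 dpf, and rose by 0.48 ± 0.10 (adjusted p = 0.00308). HERPUD1 rose in controls, by 0.45 ± 0.11 (adjusted p = 0.00697), and was at 0.12 ± 0.11 in exposed larvae (adjusted p = 0.457); the test of the difference is the -0.33 given above. SEL1L fell in exposed larvae, at -0.26 ± 0.08 (adjusted p = 0.0263), a call kept in 1 of the 6 fits without a library, and ppp1r15a rose in them by 0.37 ± 0.10 (adjusted p = 0.0190), a call kept in 3 of 6.

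Falls with age were few. SERPINH1 (ENSDARG00000075954) went from 19.9, 16.5 and 15.5 CPM to 9.71, 10.3 and 12.1 CPM in controls and fell, at -0.70 ± 0.16 (adjusted p = 0.00572), and also fell, at -0.58 ± 0.16, in exposed larvae (adjusted p = 0.0199), where groups were less far apart. HSPB1 fell in controls, at -1.60 ± 0.41 (adjusted p = 0.0167), from the 43.5, 15.7 and 12.8 CPM given above to 7.62, 9.11 and 7.23 CPM, and at -0.82 (adjusted p = 0.00108) without control replicate 1 at 7 dpf. BAG3 fell in controls, at -0.67 ± 0.20 (adjusted p = 0.0261), and was at -0.48 (adjusted p = 0.0957) without that library. Its call was kept in 1 of the 6 fits that left out a control and that of SERPINH1 in all 6. In exposed larvae the call of SERPINH1 was kept in 2 of the 6 fits that left out an exposed library (adjusted p up to 0.0877). The call of HSPB1 in controls was lost without control replicate 1 or 3 at 10 dpf (adjusted p up to 0.0617). It was also lost with the replicate block and with the compared groups alone (adjusted p up to 0.104). The inducible HSP70 genes were at -2.31 for hsp70l, -1.97 for hsp70.1 and -1.85 for hsp70.3 in controls, and above 0, at 0.30, 0.69 and 0.14, without control replicate 1 at 7 dpf; none passed the test either way. Leaving out control replicate 1 at 7 dpf moved the number of cytosolic genes called in controls from 7 to 11, 10 of them higher. Leaving out control replicate 3 at 7 dpf moved the number of ER stress genes called in controls from 3 to 7, 3 higher and 4 lower. Shares of all genes called in these fits are not given here, so neither move is read as particular to the members.

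**Figure D5:**
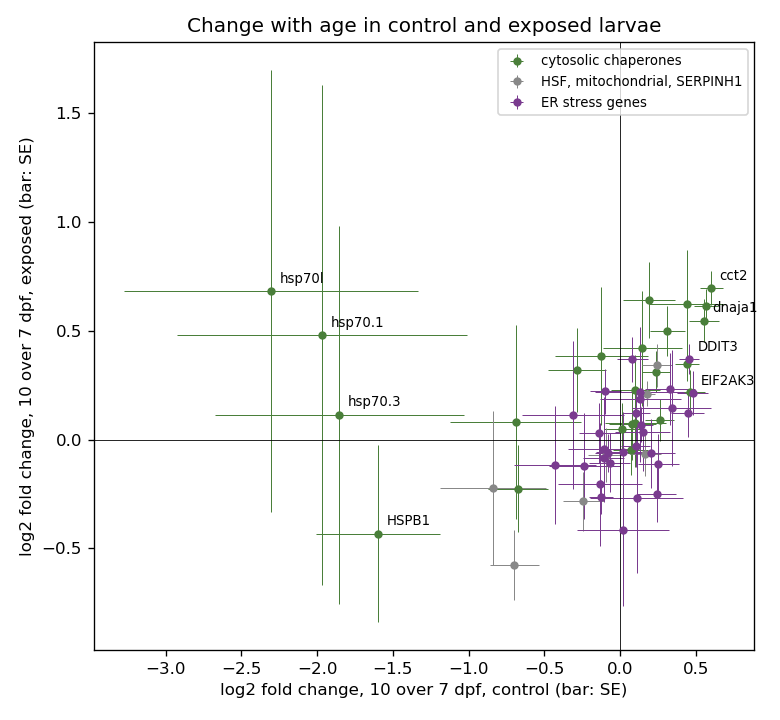
Log2 fold change from 7 to 10 dpf in controls (horizontal axis) against that in exposed larvae (vertical axis) for the 60 genes; points are genes coloured by class and bars are SE. cct2, dnaja1 and DDIT3 lie above 0 on both axes, whereas hsp70l, hsp70.1 and hsp70.3 are low on the control axis, which holds control replicate 1 at 7 dpf, and are at 0.30, 0.69 and 0.14 there without it.

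The age comparisons share libraries with the exposure comparisons, so their values for the same genes are given side by side only. Of the 10 genes called lower in exposed larvae at 10 dpf, dnaja1 and HERPUD1 were also called higher with age in controls, and dnaja1 in exposed larvae. The others among the 10 had log2 fold changes with age in controls from -0.11 for CANX to 0.25 for ern1.

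Other genes of the same pathways, which are no members, were counted by lists, against 7.02% of all genes lower, 4.77% higher and a median of -0.004. Of 50 tested genes of ER folding and protein entry 7 fell and 0 rose at 10 dpf (14% called, near the 11.8% of all genes), with 47 below 0 and a median of -0.27. Among the 7 were kdelr2a (-0.56, adjusted p = 0.0125), a receptor that returns escaped chaperones to the ER, and UGGT1 (-0.62, adjusted p = 0.0140), the folding sensor of glycoproteins. Of 24 genes of ER-associated degradation 5 fell (20.8%), with 21 below 0 and a median of -0.20. Among the 5 were VCP (-0.71, adjusted p = 0.00487), the ATPase that extracts proteins from the membrane, and NGLY1 (-0.42, adjusted p = 0.0133), which removes their glycans. The list was also written to include sec23b, which is not a degradation gene. Of 27 other factors of ER stress signalling 3 fell (11.1%, the share of all genes called being 11.8%), with 20 below 0 and a median of -0.14; among the 3 were the eIF2 alpha kinases eif2ak2 (-0.39) and eif2ak1 (-0.35).

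Lists outside the ER were mostly below 0 too. Of 40 further ATF4 targets, chiefly enzymes of amino acid synthesis, transporters and tRNA synthetases, 7 fell and 2 rose (22.5% called), with 30 below 0 and a median of -0.17; among them were the serine enzyme PSPH (-0.53, adjusted p = 0.0125) and the amino acid transporter SLC38A2 (0.26, adjusted p = 0.0222). Of 36 other genes of cytosolic folding 2 rose and 0 fell (5.56%), with 23 below 0 and a median of -0.07. They were HSBP1 (0.33, adjusted p = 0.0323), which binds HSF1, and CRYAB (ENSDARG00000042621), a small heat shock protein known from the lens, from 0.104 to 0.550 CPM (2.42, adjusted p = 0.00578). At so few reads CRYAB may have passed the filter on low counts only through exposed larvae at 10 dpf. Its rise is given as a description only. The tested lens marker list held 5 higher of 14 at 10 dpf, and its part in the CRYAB value was not tested. Of 14 other mitochondrial folding genes 1 fell (7.14%), CLPX (ENSDARG00000029063, -0.23, adjusted p = 0.0347), with 13 below 0 and a median of -0.15. This list was written to include hsf4, a heat shock factor that is not a mitochondrial folding gene. All exposed libraries lay below all controls in 8 of these 14 (57.1%), in 23 of the 50 genes of ER folding and protein entry (46%) and in 18.4% of all genes. At 7 dpf 0 genes of these 6 pathway lists were called, and between 1 and 9 per list had an unadjusted p under 0.05.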

How the data were processed

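Messenger RNA of whole larvae was sequenced in 12 libraries, 3 per group, with a stranded kit per the labels. The deposited values are raw read counts per gene, made with STAR on GRCz11 per the submitters' processing notes, with versions and annotation not given in the sources used here. The column of the strand that held nearly all reads was used; the other held 2.24 to 2.55% of reads on genes. Symbols came from a table that names 28988 of the 32057 genes.

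Low counts were left out by filterByExpr, with a minimum count of 10 reads and a minimum total of 15. The minimum count applies to about as many libraries as the smallest group holds, and not to every library. The remaining genes were scaled with TMM and tested two-sided with edgeR's quasi-likelihood test. The robust fit gave each group its own mean and left 8 residual degrees of freedom, and p-values were adjusted by Benjamini and Hochberg over 23075 genes. Each SE was derived from the fold change and its F statistic. The precision of low counts is limited by 3 replicates per group. CPM used TMM-scaled library sizes, and list means used log2 CPM with a prior count of 2. The p-values set each difference of group means against the spread between these samples.

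Members and lists were chosen with earlier results of these data known. Named in each exposure comparison and the difference were up to 12 called members and a fixed set of central genes, with age up to 6 called members per direction by p, and per pathway list up to 2 called genes; further members are named to account for the set. HSP90AA1 was named after its values were seen. Alternatives were RLE or upper-quartile scaling, no filter, a filter of 1 CPM, DESeq2, a block for the replicate number, counts summed without regard to strand, the compared groups alone, and each library left out; counts of separate groups without a library were added after the data were seen. The fits were tested on simulated data. The work ran in R 4.3.3 with edgeR 4.0.16 and limma 3.58.1. DESeq2 had version 1.42.0, and figures were drawn with matplotlib 3.10.9.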

Additional observations from a re-analysis of the deposited data

How the results depend on the processing

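Counts of called members are given for the alternatives that moved them by over 1.5 times. The cause was not tested. Shares of all genes called under the same alternatives are not given beside these counts. No move is therefore read as particular to the members. At 7 dpf, where 0 were called, DESeq2 called 6 members, 6 of them ER stress genes, and leaving out 1 library gave 0 to 16 members, 0 to 15 ER stress genes and 0 to 1 cytosolic genes. At 10 dpf, with 10 members called, the count was 6 with the replicate block and 19 with DESeq2 (1 higher, 18 lower), and 3 to 8 without 1 library. The 8 ER stress genes became 14 with DESeq2 and 3 to 6 without 1 library. The single cytosolic gene became 0 with RLE scaling, upper-quartile scaling, no filter, a filter of 1 CPM, the replicate block and unstranded counts, 3 with DESeq2, and 0 to 1 without 1 library. For the difference between ages, leaving out 1 library gave 0 to 1 members and 0 to 1 ER stress genes. With age in controls it gave 9 to 16 members, 5 to 11 cytosolic and 3 to 7 ER stress genes, and in exposed larvae 7 to 13 members and 1 to 3 ER stress genes. Of 1331 values of named genes under the alternatives 52, over 22 results, had the other sign, and 0 of these were called with or without the alternative. Without 1 library, log2 values at 7 dpf ran from -0.74 to 0.13 for HSPA8 (ENSDARG00000037403), -0.033 to 0.022 for HSP90AB1, -0.24 to 0.043 for HSPD1, -0.15 to 0.044 for atf4a and -0.26 to 0.084 for ASNS. At 10 dpf they ran from -0.15 to 0.10 for hsp70.3, -0.077 to 0.16 for the same HSPA8 gene, -0.11 to 0.036 for hsf1 and -0.34 to 0.13 for SERPINH1 (ENSDARG00000019949). The difference between ages ran from -0.030 to 2.45 for hsp70.3, -0.13 to 0.73 for that HSPA8 gene, -0.26 to 0.36 for hsp90aa1.1, -0.11 to 1.11 for dnajb1b, -0.23 to 0.055 for HSPD1, -0.075 to 0.28 for SERPINH1 (ENSDARG00000075954), -0.0061 to 0.61 for HSPA5, -0.13 to 0.37 for HSP90B1, -0.16 to 0.10 for XBP1 and -0.094 to 0.094 for atf4a. The age effect in controls ran from -2.45 to 0.69 for hsp70.1, -2.34 to 0.14 for hsp70.3 and -2.80 to 0.30 for hsp70l. HSP90AB1 at 7 dpf was at 0.0115 with RLE scaling and DESeq2 and 0.0027 with upper-quartile scaling. That HSPA8 gene at 10 dpf was at 0.0071 with RLE scaling, 0.0186 with upper-quartile scaling, 0.0066 with a filter of 1 CPM, 0.0047 with the replicate block, 0.0080 with DESeq2 and 0.0040 with the compared groups alone. The difference was -0.0131 for SERPINH1 (ENSDARG00000075954) with unstranded counts and -0.0234 for HSP90B1 with the replicate block. Over 18 same-number pairs the correlation of deviations ran from -0.20 to 0.22, with 3 over 0.1. Replicate numbers were not seen to pair the libraries for exposure or with age in exposed larvae. In controls a pairing between the ages is not excluded. Each library correlated best with its own number in 2 of 6 cases for exposure at 7 dpf, 0 of 6 at 10 dpf, 6 of 6 with age in controls and 2 of 6 in exposed larvae. With the replicate block 0 members were called at 7 dpf, 15 with age in controls and 14 in exposed larvae.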
